A study of Mus musculus with 2 samples.

Results

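Mature migratory dendritic cells (mature DCs) were followed in single-cell RNA counts of CD45+ cells, the leukocytes, sorted from mouse tumours. They were taken by a rule on raw transcript counts (unique molecular identifiers, UMIs): at least 2 UMIs of Fscn1, at least 4 of Fscn1, Ccr7 and Cacnb3 together, at most 1 of the T cell receptor chains Cd3d, Cd3e and Cd3g, at most 1 of the natural killer (NK) genes Ncr1, Klrb1c and Klre1, and at most 2 of the macrophage genes C1qa, C1qb and C1qc. The rule took 678 of the 36259 cells kept, 257 of 15844 in the library labelled Ythdf2 KO and 421 of 20415 in the WT library. Cells kept had at least 200 genes and at most 10% mitochondrial UMIs, out of 16312 and 20886 barcodes deposited. Each genotype is 1 library, so no difference has a replicate check, no test across samples can be made, and every interval given (95%, exact) covers counting error only.

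The study set cells of Ythdf2 KO tumours against cells of WT tumours, all from C57BL/6 mice. Per the labels' protocols, enzymes freed the cells of each tumour, erythrocytes were removed, a flow sort took those with CD45 on their surface, and a droplet 5′ kit turned their RNA into libraries. The labels speak of KO tumours, the design text of cKO mice and the title of a role within the tumour, so the cells in which Ythdf2 was deleted, the driver of a conditional deletion and the deleted part of the gene are not given in the sources used here. Neither are the tumour line, its site, the age of the mice or whether animals were pooled. The cells kept held 133055191 UMIs in the library labelled Ythdf2 KO and 168317001 in the WT library, with medians of 5753 and 5674 UMIs per cell.

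Conventional dendritic cells take up antigen in tissues and exist as cDC1, specialised in cross-presentation to CD8 T cells, and cDC2, which present mainly to CD4 T cells. On maturation either kind switches on the actin bundler fascin and the chemokine receptor CCR7, stops making new MHC class II, displays costimulatory and inhibitory ligands, and moves along CCL19 and CCL21 to the draining lymph node. In tumours such cells are known as mature regulatory or LAMP3+ dendritic cells and are a source of the cytokine interleukin-12. YTHDF2 is a cytoplasmic protein that binds m6A-methylated mRNA and promotes its decay.

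Ythdf2 itself (ENSMUSG00000040025, GRCm38 chr4:132184912-132212303, minus strand) was not lower in the mature DCs labelled Ythdf2 KO. After the cells with Rhox5 RNA described below were left out, these held 93.8 (78.1 to 112) Ythdf2 UMIs per 1000000 UMIs of these cells (CPM) from 125 UMIs, against 77.2 (67.0 to 88.7) CPM from 202 UMIs in WT, a ratio of 1.21 (0.964 to 1.53). In all other cells kept the levels were 45.5 and 48.0 CPM, a ratio of 0.949 (0.917 to 0.981), in macrophages 50.7 and 49.6 CPM, and in T cells 43.0 and 53.9 CPM, a ratio of 0.798 (0.664 to 0.956). The RNA thus gave no check of the label. Whether a deletion leaves transcript that is counted, or lies in other cells, was not tested, and cells are called by their library's label throughout.

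The cells taken by the rule were not of 1 kind. A total of 33 cells labelled Ythdf2 KO and 2 WT cells held at least 5 UMIs of Rhox5, an X-linked homeobox gene (ENSMUSG00000095180, chrX:37804842-37808876, plus strand) best known from the reproductive tract. They had at least 6 and 25 Rhox5 UMIs, whereas no other mature DC had more than 1 and 2. Their median depths were 43113 and 29035 UMIs per cell, against 5508 and 5513 in the remaining cells, so the 33 cells supplied 52.6% of all mature DC UMIs in the library labelled Ythdf2 KO, against 2.17% from the 2 WT cells. No Ccr7 UMI was found in 31 of the 33 and in both WT cells. Their summed level of the 5 mature DC markers Fscn1, Ccr7, Cacnb3, Ccl22 and Il4i1 was 176 and 172 CPM, against 6297 and 5511 CPM in the rest. A list of 9 tumour and stromal genes holds Rhox5 itself, so it was read without it. The other 8 summed to 558 CPM from 826 UMIs in the 33 cells labelled Ythdf2 KO, with 7 detected and Krt18 at 0, and to 51.7 CPM from only 3 UMIs in the 2 WT cells. In the rest they summed to 11.3 and 7.65 CPM, with Col1a1, Col1a2, Krt8 and Krt18 at 0. As a group these cells go against the name mature DC. They are called Rhox5 cells here, and results are given without them unless the text says otherwise. Among all cells kept, 137 labelled Ythdf2 KO and 15 WT had at least 5 Rhox5 UMIs.

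**Figure D1:**
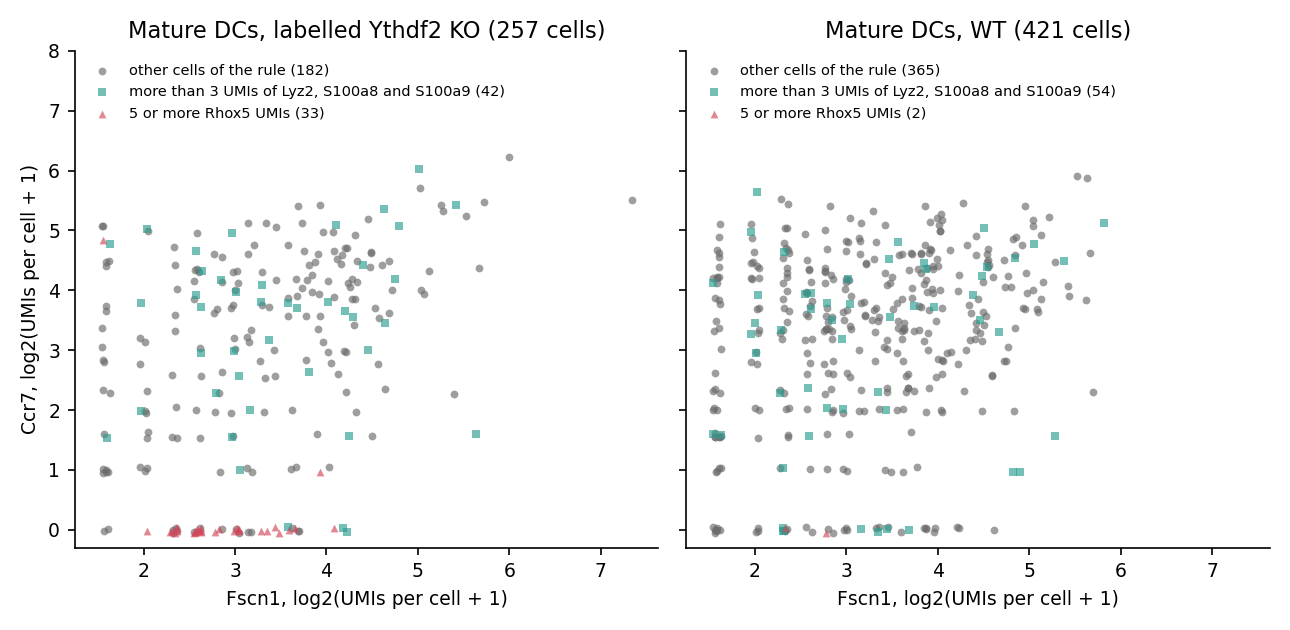
Each point is 1 cell taken by the rule, with Fscn1 on the horizontal axis and Ccr7 on the vertical axis, both as log2(UMIs + 1) with a small random shift, in the library labelled Ythdf2 KO (left, 257 cells) and WT (right, 421 cells). Of the 33 Rhox5 cells on the left (triangles), 31 lie at 0 Ccr7, while cells with more than 3 UMIs of Lyz2, S100a8 and S100a9 (squares, 42 and 54) are spread among the others.

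A further 42 and 54 cells carried more than 3 UMIs of the myeloid genes Lyz2, S100a8 and S100a9. Their median doublet score, the share of simulated cell pairs among their neighbours, was 0.857 and 0.883, against 0.206 and 0.150 in the cells without. Their median depth was 8912 and 9954 UMIs, against 4977 and 5237. Since these genes set the cells apart, marker sums were read without them. The other 6 neutrophil markers summed to 991 and 585 CPM, against 10.7 and 17.5 CPM in the cells without, and the other 11 macrophage markers to 1342 and 1902 CPM, against 239 and 399 CPM. The part of these cells in each result below was not tested. Counts are also given for the 182 cells labelled Ythdf2 KO and 365 WT cells that had neither feature, called the strict set. The libraries shared 101 barcode sequences, of which 2 cells labelled Ythdf2 KO and 0 WT cells were mature DCs.

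Mature DCs formed a smaller share of the library labelled Ythdf2 KO. Without Rhox5 cells they were 224 cells or 1.41% (1.24 to 1.61) of the cells labelled Ythdf2 KO and 419 cells or 2.05% (1.86 to 2.26) of the WT cells, a ratio of 0.689 (0.583 to 0.812). With Rhox5 cells the shares were 1.62% (1.43 to 1.83) and 2.06% (1.87 to 2.27), a ratio of 0.787 (0.671 to 0.921). In the strict set they were 1.15% (0.989 to 1.33) and 1.79% (1.61 to 1.98), a ratio of 0.642 (0.535 to 0.770). The direction was the same in the 3 sets, and whether the distance exceeds that between 2 tumours of 1 genotype cannot be told from 1 library each.

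Among conventional DCs, mature DCs took shares with overlapping intervals. Rules of the same kind took 36 and 39 cDC1 by Xcr1 and Clec9a, and 31 and 83 cDC2 by Cd209a. Mature DCs without Rhox5 cells were 77.0% (71.7 to 81.7) of conventional DCs, themselves included, in the library labelled Ythdf2 KO. In WT they were 77.4% (73.7 to 80.9), a ratio of 0.994. The cDC2 were 0.196% and 0.407% of cells kept, a ratio of 0.481 (0.308 to 0.735), and the cDC1 0.227% and 0.191%, a ratio of 1.19 (0.735 to 1.92). Both groups also held monocyte RNA. The 8 monocyte markers summed to 6555 and 5828 CPM in cDC2 and 4706 and 3403 CPM in cDC1. They summed to 7240 and 7277 CPM in macrophages and 2234 and 2192 CPM in mature DCs without Rhox5 cells. The part of such RNA in these shares and in the comparisons with cDC1 and cDC2 below was not tested. Because the rule counts UMIs, it depends on depth: with each cell thinned to 3000 UMIs, it took 187 of 12086 cells (1.55%) labelled Ythdf2 KO and 365 of 16002 WT cells (2.28%), after 3758 and 4413 shallower cells were left out.

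**Figure D2:**
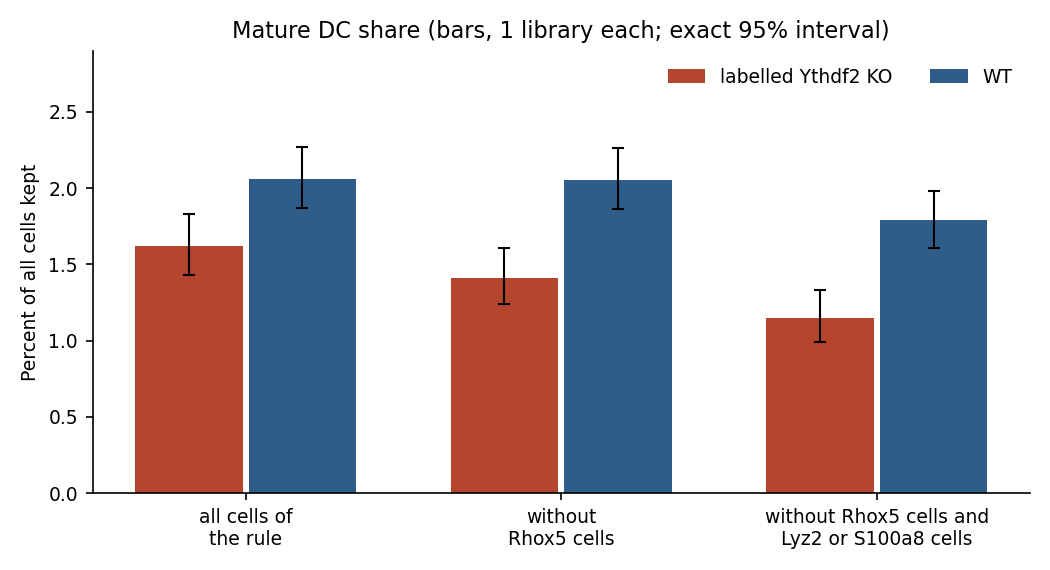
Bars give the percent of all cells kept that were mature DCs, in the library labelled Ythdf2 KO (left of each pair) and WT (right), with exact 95% binomial intervals as error bars. The bars labelled Ythdf2 KO stand at 1.62%, 1.41% and 1.15%, below the WT bars at 2.06%, 2.05% and 1.79%.

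The 5 marker genes were high in both libraries, which the rule fixes for Fscn1 and for the sum of Fscn1, Ccr7 and Cacnb3. Without Rhox5 cells, 19 cells labelled Ythdf2 KO and 39 WT cells held no Ccr7 UMI. Fscn1 (ENSMUSG00000029581, chr5:142960343-142973185, plus strand), the actin bundler of dendrites, had 2114 CPM in cells labelled Ythdf2 KO and 1815 CPM in WT, with 2, 9 and 163 UMIs in the lowest, median and highest cell and 2, 8 and 56 in WT. Ccr7 (ENSMUSG00000037944, chr11:99144196-99155077, minus strand) had 2278 and 2058 CPM, with a median of 11.5 and 11 UMIs per cell. Cacnb3 (ENSMUSG00000003352, chr15:98630840-98644529, plus strand), a calcium channel subunit, had 676 and 585 CPM. The chemokine Ccl22 (ENSMUSG00000031779, chr8:94745590-94751699, plus strand), which attracts CCR4+ T cells, and the amino acid oxidase Il4i1 (ENSMUSG00000074141, chr7:44816387-44840809, plus strand) were not in the rule. Ccl22 had 893 and 667 CPM, a ratio of 1.34 (1.24 to 1.44), and Il4i1 had 337 and 385 CPM, a ratio of 0.874 (0.781 to 0.978). After each cell was thinned to 2000 UMIs, Ccl22 was found in 56.5% of 207 cells and 50.6% of 401 cells (69.2% and 70.2% before thinning), against 1.41% and 3.02% of thinned T cells. The median depths behind these shares were 5508 and 5513 UMIs in mature DCs and 5562 and 5386 in T cells. Lamp3, which names these cells in human tumours, had 0 UMIs in both libraries.

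The genes with the highest ratio over all other cells kept, chosen by that ratio and so given without a test, beside the rule's own included Bcl2l14 (252 and 193 CPM, 126-fold and 56.5-fold above other cells), Slc27a3 (175 and 141 CPM, 93.7-fold and 54.9-fold), the adenylate cyclase Adcy6 (166 and 152 CPM, 78.3-fold and 43.7-fold), Il12b (1063 and 466 CPM, 139-fold and 41.5-fold), the inhibitory ligand Cd200 (660 and 810 CPM, 61.3-fold and 38.5-fold) and Tbc1d4 (2111 and 2093 CPM, 65.7-fold and 37.5-fold). Also among the 20 were Strip2, Nudt17, Cacna1s, Mreg, Fam89a, Snn, Slc22a23, Tmem150c, Tspan33, the costimulatory ligand Cd70 (102 and 89.1 CPM) and the semaphorin Sema7a (262 and 223 CPM). The mitochondrial share of UMIs was lower in mature DCs, with medians of 0.375% and 0.335%, against 1.30% and 1.32% in all other cells kept.

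Markers of the cDC1 and cDC2 from which such cells can arise were lower in mature DCs, to differing degrees. The 12 cDC1 markers summed to 2129 and 1909 CPM, against 4510 and 4702 CPM in cDC1, and the 12 cDC2 markers to 495 and 604 CPM, against 2511 and 2307 CPM in cDC2. Of the cDC1 sum in mature DCs, the single gene Irf8 gave 1828 and 1661 CPM. Part of the distance in Xcr1, Clec9a and Cd209a follows from the rules that took cDC1 and cDC2 by them. Xcr1, the receptor for XCL1 on cDC1, had 0.751 and 0.382 CPM in mature DCs, against 214 and 213 CPM in cDC1. Clec9a, a cDC1 receptor for dead cells, had 1.5 and 2.29 CPM, against 177 and 197 CPM. The lectin Cd209a had 0 and 2.68 CPM, against 626 and 885 CPM in cDC2. Of the 12 cDC1 markers, 10 were at least 1.5-fold lower than in cDC1 in both libraries, and of 11 cDC2 markers with enough UMIs, 8 were lower than in cDC2. Transcription factors of both lineages remained detectable. Irf8, a factor of cDC1, had 1828 and 1661 CPM in mature DCs, 1829 and 1675 CPM in cDC1 and 491 and 363 CPM in cDC2. Batf3, a cDC1 factor, had 233 and 176 CPM in mature DCs, 161 and 149 CPM in cDC1 and 52.1 and 47.8 CPM in cDC2. Irf4, a factor of cDC2 and of migration, had 36 and 39.8 CPM. Cd207, which marks Langerhans cells, had 0 UMIs. The share of mature DCs that came from either lineage was not tested.

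Most genes of a migration and cytoskeleton list were higher than in both other conventional DC groups. Across all genes with at least 10 UMIs, 19.5% of 8067 were at least 1.5-fold higher than in cDC1 in both libraries and 19.5% were lower, and against cDC2 the shares were 19.6% and 20.4% of 7792. Of 16 migration and cytoskeleton genes 15 were higher than in cDC1 and 15 than in cDC2, the exception being Adam8. That list holds 3 genes of the rule and was chosen with earlier results of these data known. Its count was thus partly set in advance, and the list also holds genes of other functions, such as the cell cycle inhibitor Cdkn2b. Marcks, an actin-binding substrate of protein kinase C, had 2259 and 2033 CPM in mature DCs, 595 and 546 CPM in cDC1 and 348 and 279 CPM in cDC2. Tmem123, a surface mucin-like protein, had 1750 and 1553 CPM, against 45.4 and 52.8 CPM in cDC1 and 117 and 124 CPM in cDC2. Samsn1, an adaptor protein, had 1572 and 1706 CPM, against 53.0 and 36.7 CPM in cDC1 and 86.9 and 138 CPM in cDC2.

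Ligands that turn T cells on and ligands that hold them back were high together. For comparison, 19.5% of all genes were higher than in cDC1 and 19.6% than in cDC2. Of 10 maturation and costimulation genes, 8 were higher than in cDC1 (Cd40, Cd80, Cd83, Cd70, Icosl, Tnfsf4, Tnfsf9 and Relb) and the same genes without Cd40 and Icosl were higher than in cDC2, while Cd48 was lower than in both. Cd80, a ligand of CD28 and CTLA-4, had 191 and 180 CPM, against 17.7 and 20.7 CPM in cDC1 and 30.4 and 28.0 CPM in cDC2. Cd86, the other such ligand, had 355 and 320 CPM, against 184 and 216 CPM in cDC1 and 265 and 175 CPM in cDC2. Of 11 inhibitory and regulatory genes, 9 were higher than in either group, and Lgals9 was lower than in both. Cd274, which encodes PD-L1, had 688 and 576 CPM, against 98.4 and 82.6 CPM in cDC1 and 104 and 90.6 CPM in cDC2. Pdcd1lg2, which encodes PD-L2, had 149 and 160 CPM, against 20.2 and 18.4 CPM in cDC1 and 8.69 and 14.8 CPM in cDC2. Socs2, an inhibitor of cytokine signalling, had 626 and 628 CPM and 0 UMIs in cDC1 of both libraries, where the floor of 3 UMIs corresponds to 7.57 and 6.88 CPM.

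**Figure D3:**
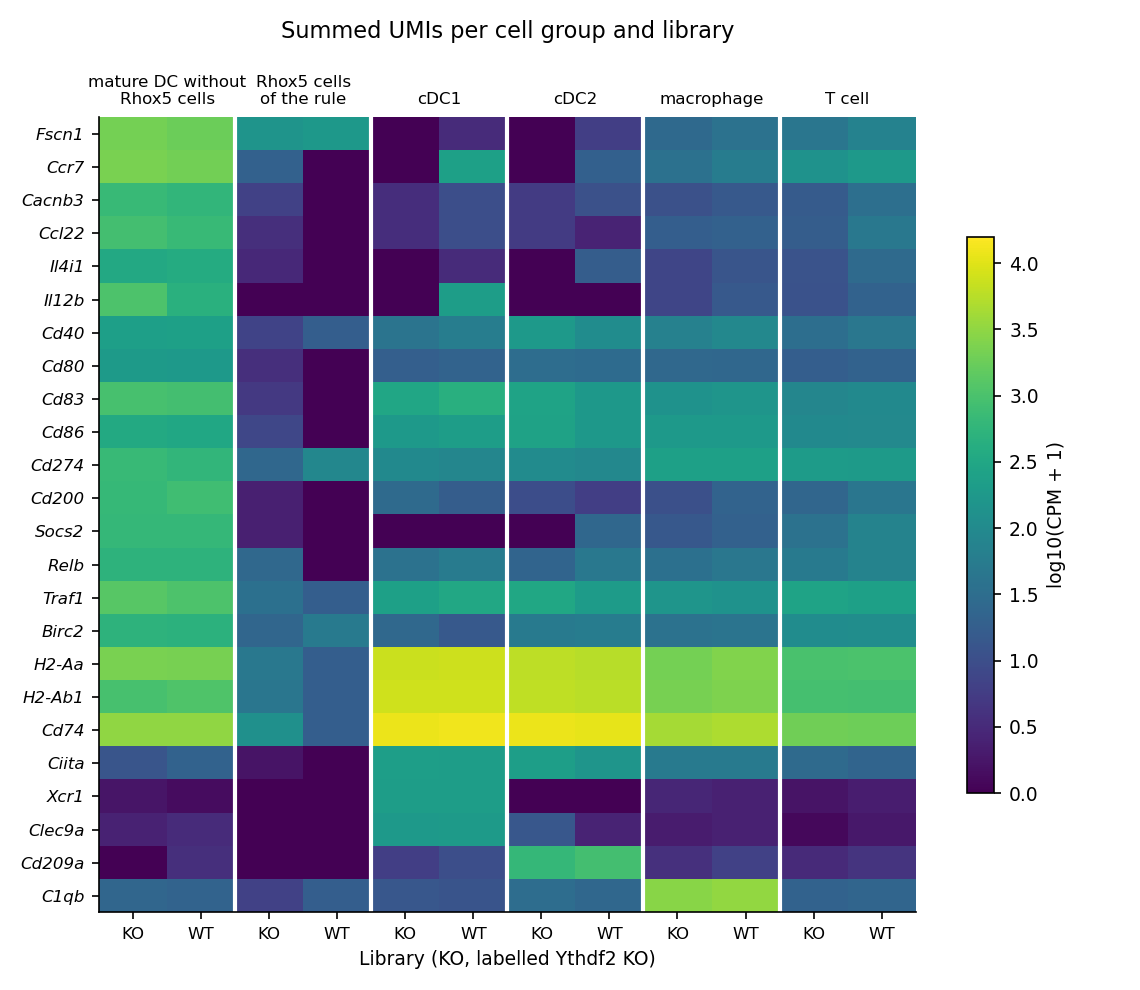
Colour gives the summed level of 24 genes as log10(CPM + 1) in mature DCs without Rhox5 cells, the Rhox5 cells of the rule, cDC1, cDC2, macrophages and T cells, each in the library labelled Ythdf2 KO (left column) and WT (right column). Mature DCs stand out in the upper rows, such as Cd200 at 660 and 810 CPM against 27.7 and 16.1 CPM in cDC1, and are lower than cDC1 and cDC2 in the MHC class II genes, such as H2-Ab1 at 953 and 1123 CPM against 7776 and 7896 CPM in cDC1.

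NF-kappaB signalling genes were higher in mature DCs. NF-kappaB is the transcription factor family through which CD40, TNF and microbial sensors drive maturation. Of 19 genes of this pathway and of TNF receptor signalling, 18 were higher than in cDC1 (not Tnfaip2) and 15 than in cDC2 (not Tnfaip2, Nfkb1, Nfkbie or Tnfaip3). The shares over all genes were 19.5% and 19.6%. The subunit Relb, required for DC maturation, had 516 and 513 CPM, against 37.8 and 55.1 CPM in cDC1 and 21.7 and 47.8 CPM in cDC2. Its inhibitor Nfkbia had 1635 and 1556 CPM, against 219 and 335 CPM in cDC1 and 856 and 447 CPM in cDC2. The adaptor Traf1 had 1277 and 1083 CPM, against 240 and 324 CPM in cDC1 and 321 and 199 CPM in cDC2. The ubiquitin ligase Birc2 had 516 and 493 CPM, against 25.2 and 13.8 CPM in cDC1 and 52.1 and 56.0 CPM in cDC2. Between the libraries none of the 19 was 1.5-fold apart, where 2.81% of all genes were higher and 3.28% lower. Their median log2 ratio was 0.02.

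Promoter sequences of these genes, 250 bases upstream of each start in RefSeq (GRCm38.p6), were searched for the NF-kappaB consensus on both strands, with overlapping matches counted. At least 1 promoter held a match in 9 of 17 genes of the NF-kappaB list with a promoter in the table (52.9%): Nfkb2, Nfkbia, Nfkbie, Rel, Tank, Tnfaip2, Tnfaip3, Tnip1 and Tnip3. Over all 27025 genes the share was 8.23%, and over all 32851 promoters 7.25%. Among the 20 leading genes of mature DCs 1 of 18 held a match (5.56%, Tmem150c), among migration genes 1 of 12 (8.33%, Gpr132), and among the 4 markers with a promoter 0. A match is a description of letters, not a binding site, and no match says only that these letters are not in this window. Shown are 3 promoters of the NF-kappaB list with a match and those of the marker Fscn1 and of Il12b, the cytokine gene with the highest ratio between the libraries, without one; capitals mark the match. The windows are chr12:55492648-55492897 (minus) for Nfkbia, with the match starting at base -29, chr11:23770970-23771219 (minus) for Rel, with overlapping matches at -92 and -91, chr6:65590148-65590397 (plus) for Tnip3, with the match at -54, chr5:142960105-142960354 (plus) for Fscn1 and chr11:44399813-44400062 (plus) for Il12b.
Nfkbia: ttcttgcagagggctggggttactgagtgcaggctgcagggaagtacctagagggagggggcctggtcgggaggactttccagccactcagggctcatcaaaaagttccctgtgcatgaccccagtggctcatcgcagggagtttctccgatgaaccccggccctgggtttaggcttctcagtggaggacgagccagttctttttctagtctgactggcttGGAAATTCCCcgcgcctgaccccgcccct
Rel: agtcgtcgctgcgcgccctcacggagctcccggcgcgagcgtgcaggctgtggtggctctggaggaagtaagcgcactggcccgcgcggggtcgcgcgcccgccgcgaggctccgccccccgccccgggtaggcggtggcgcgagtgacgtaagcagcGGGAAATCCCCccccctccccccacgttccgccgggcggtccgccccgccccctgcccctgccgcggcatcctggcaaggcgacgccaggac
Tnip3: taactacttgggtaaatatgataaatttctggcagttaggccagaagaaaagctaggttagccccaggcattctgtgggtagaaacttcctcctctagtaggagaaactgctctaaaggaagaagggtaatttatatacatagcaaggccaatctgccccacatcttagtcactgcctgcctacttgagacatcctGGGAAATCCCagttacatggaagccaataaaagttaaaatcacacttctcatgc
Fscn1: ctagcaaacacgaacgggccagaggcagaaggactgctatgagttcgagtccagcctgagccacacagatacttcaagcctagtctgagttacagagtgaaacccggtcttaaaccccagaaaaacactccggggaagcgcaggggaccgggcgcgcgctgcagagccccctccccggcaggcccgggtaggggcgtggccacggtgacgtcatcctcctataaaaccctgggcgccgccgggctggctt
Il12b: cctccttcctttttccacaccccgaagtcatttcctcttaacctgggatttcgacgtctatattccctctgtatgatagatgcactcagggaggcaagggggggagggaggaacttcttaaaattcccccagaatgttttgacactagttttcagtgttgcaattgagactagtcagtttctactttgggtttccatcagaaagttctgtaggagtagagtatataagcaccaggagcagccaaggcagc

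The 3 genes shown with a match were each higher in mature DCs than in cDC1. Of all 9 list genes with a match, Tnfaip2 was not counted as higher than in cDC1. Tnfaip2, Nfkbie and Tnfaip3 were not counted as higher than in cDC2. Traf1, higher than in both, held no match in its window. Whether a match goes with a higher level was not tested. Rel, which encodes the subunit c-Rel, had 906 and 938 CPM, against 204 and 291 CPM in cDC1 and 274 and 283 CPM in cDC2. Tnip3, which encodes a partner of the NF-kappaB inhibitor A20, had 379 and 259 CPM, a ratio between the libraries of 1.46 (1.30 to 1.65), against 15.1 and 32.1 CPM in cDC1 and 69.5 and 64.3 CPM in cDC2.

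Most MHC class II genes were lower in mature DCs than in cDC1 and cDC2, while class I genes were mixed. Of 14 class II presentation genes 11 were lower than in cDC1 and 11 than in cDC2, while the thiol reductase Ifi30 was higher than in cDC1 and the protease Lgmn higher than in both. Over all genes 19.5% were higher and 19.5% lower than in cDC1, and 19.6% and 20.4% than in cDC2. H2-Ab1, a class II chain, had 953 and 1123 CPM in mature DCs, 7776 and 7896 CPM in cDC1 and 6364 and 5737 CPM in cDC2. Ciita, the transactivator of class II genes, had 12 and 20.3 CPM, against 224 and 213 CPM in cDC1 and 226 and 152 CPM in cDC2. March1, a ubiquitin ligase that removes class II and CD86 from the surface, had 10.5 and 13 CPM, against 187 and 128 CPM in cDC1 and 60.8 and 72.5 CPM in cDC2. H2-DMa, which loads peptides on class II, had 67.6 and 81.1 CPM, against 777 and 789 CPM in cDC1 and 856 and 747 CPM in cDC2. Of 18 class I genes 8 were higher than in cDC1 and 11 than in cDC2, with the chaperones Calr and Pdia3 lower than in both. H2-K1, a class I heavy chain, had 3671 and 3670 CPM, against 974 and 1099 CPM in cDC1 and 1303 and 1185 CPM in cDC2. B2m, its light chain, had 6344 and 6313 CPM, against 2124 and 2123 CPM in cDC1 and 2824 and 2581 CPM in cDC2.

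Survival genes also stood higher, and division genes lower than in cDC1. Of 15 survival and apoptosis genes 8 were higher than in cDC1 and 8 than in cDC2, where another 2 were lower. Over all genes 19.5% were higher and 19.5% lower than in cDC1, and 19.6% and 20.4% than in cDC2. The BCL2 relative Bcl2a1b, whose reads may be shared with near-identical copies, had 2240 and 1937 CPM, against 169 and 298 CPM in cDC1 and 78.2 and 107 CPM in cDC2. Cflar, an inhibitor of caspase-8, had 375 and 356 CPM, against 53.0 and 68.8 CPM in cDC1 and 148 and 117 CPM in cDC2. Of 11 cell cycle genes 9 were lower than in cDC1, and of 7 with enough UMIs 3 were higher than in cDC2. Of 13 genes of the m6A machinery 1 was higher than in cDC1 and 2 than in cDC2, both below the shares of all genes.

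Chemokines went both ways. Of 18, 10 were higher than in cDC1 and 5 than in cDC2 (Ccl5, Ccl8, Ccl17, Ccl22 and Cxcl16 in both), and 2 and 5 were lower. Over all genes 19.5% were higher and 19.5% lower than in cDC1, and 19.6% and 20.4% than in cDC2. Ccl5 (ENSMUSG00000035042, chr11:83525778-83530518, minus strand), a chemokine that attracts T cells, had 14130 and 13891 CPM in mature DCs, with 0, 51 and 718 UMIs in the lowest, median and highest cell and 0, 53 and 770 in WT. Its level was 25.2 and 78.0 CPM in cDC1, 291 and 252 CPM in cDC2 and 1622 and 2255 CPM in T cells. Thinned to 2000 UMIs, 97.1% and 98.8% of mature DCs held a Ccl5 UMI, against 46.3% and 50.2% of T cells. The levels in the libraries were within 1.5-fold, with a ratio of 1.02 (0.999 to 1.04). Cxcl16, a ligand of CXCR6 on effector T cells, had 1157 and 1274 CPM, against 146 and 135 CPM in cDC1 and 86.9 and 124 CPM in cDC2. Ccl17, a CCR4 ligand, had 21.8 and 21.8 CPM, in few cells.

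Between the libraries, few genes of mature DCs stood apart once Rhox5 cells were left out. A gene was counted where the summed level differed at least 1.5-fold and the exact conditional interval left out 1, among genes with at least 50 UMIs and 20 CPM in either library. Without Rhox5 cells 143 of 5088 genes (2.81%) were higher in cells labelled Ythdf2 KO and 167 (3.28%) lower. With them 1966 of 6035 (32.6%) were higher and 1262 (20.9%) lower. In the strict set the counts were 145 (2.96%) and 214 (4.37%) of 4895. The median log2 ratio over all genes was -0.01 without Rhox5 cells and 0.11 with them.

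Genes were named where mature DCs of both libraries held at least the level of all other cells kept, leaving out predicted and sex-linked genes among others. Over all cells of the rule, the 12 genes with the highest ratios were Fbln2, Prl2c3, Sparc, Dynap, Meis2, Fstl1, Prg4, Rgs17, Steap1, Shisal2b, Htra1 and Serpinh1, among them genes of the extracellular matrix. Fbln2, which encodes fibulin-2, had 57.3 and 0.374 CPM, Sparc 98.5 and 1.12 CPM and Serpinh1, a collagen chaperone, 158 and 2.99 CPM. The Rhox5 cells labelled Ythdf2 KO alone held 109, 187 and 300 CPM of these 3 genes. The WT values rest on 1, 3 and 8 UMIs, so there few UMIs met the condition on other cells. These ratios thus describe the Rhox5 cells rather than mature DCs. Lists of DC genes had negative medians over all cells of the rule. The median log2 ratio was -0.87 for migration, -0.90 for costimulation and -1.02 for MHC class II genes, against 3.24 for cell cycle and 1.08 for hypoxia genes. Without Rhox5 cells these medians were 0.13, 0.10, -0.20, -0.06 and -0.44.

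Without Rhox5 cells, the 12 genes named as highest by ratio in cells labelled Ythdf2 KO were Zc3h6, Igfbp4, Wfdc9, Mfge8, Msrb3, Edil3, Fndc7, Il12b, Il6, Cetn4, Serpinb1a and Alg9, with ratios between 2.77 and 2.15. Zc3h6, a zinc finger gene, had 30.8 and 11.1 CPM, a ratio of 2.77 (1.68 to 4.63). Igfbp4, which binds insulin-like growth factors, had 57.0 and 20.7 CPM, a ratio of 2.76 (1.92 to 3.99), and 2.12 without the 5 highest cells of each library. Mfge8 (chr7:79133768-79149060, minus strand), which bridges dying cells to phagocytes, had 131 and 52.0 CPM, a ratio of 2.51 (1.99 to 3.17). A single cell held 24.1% of its UMIs in the library labelled Ythdf2 KO and 5.88% in WT, and without the 5 highest cells the ratio was 1.12 (0.802 to 1.56). The neutrophil markers measured, 6 of 6, were counted as higher, against 2.81% of all genes, with a median log2 ratio of 0.86. In the strict set 0 of the 2 still measured were counted. That set leaves out cells by S100a8 and S100a9, which belong to this list, so the change is partly built in.

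The 12 named as lowest by ratio were Apod, Sct, Bcl9l, Pi4k2b, Olfr920, Pdgfb, C1qtnf12, Gbp9, Atg14, Tm4sf5, Tsc22d1 and Cx3cl1, with ratios between 0.405 and 0.542. Apod, a lipid carrier, had 9.76 and 24.1 CPM in 5 and 19 cells, and Sct, which encodes the hormone secretin, 15.8 and 38.6 CPM in 4 and 17 cells, so both rest on few cells. Pdgfb (chr15:79995874-80014977, minus strand), a growth factor for pericytes, had 27.0 and 56.2 CPM, a ratio of 0.481 (0.324 to 0.696). Gbp9, an interferon-induced GTPase, had 67.6 and 129 CPM, a ratio of 0.523 (0.409 to 0.661), and 0.479 without the 5 highest cells. Cx3cl1, the CX3CR1 ligand, had 15.8 and 29.1 CPM, a ratio of 0.542 (0.318 to 0.889).

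Among the lists of gene function, cytokines had the highest median, and a few cells carried its leading gene. Of 9 cytokine genes measured 4 were higher in cells labelled Ythdf2 KO (Il12b, Il6, Ebi3 and Il27) and 0 lower, against 2.81% and 3.28% of all genes. The median log2 ratio of the list was 0.38, against -0.01 over all genes. With Rhox5 cells the same list had 0 higher and 2 lower and a median of -0.44, and Il12b had a ratio of 1.10 (1.02 to 1.19). Il12b (ENSMUSG00000004296, chr11:44400063-44414033, plus strand) encodes the p40 chain shared by interleukin-12 and interleukin-23. It had 1063 CPM from 1416 UMIs in 95 of 224 cells labelled Ythdf2 KO, against 466 CPM from 1219 UMIs in 157 of 419 WT cells, a ratio of 2.28 (2.11 to 2.46). The highest cell held 291 UMIs, 20.6% of the total, against 70 UMIs or 5.74% in WT, and the 5 highest held 46.4% and 16.7%. Without the highest cell of each library the ratio was 1.93 (1.78 to 2.10), and without the 5 highest 1.49 (1.36 to 1.64), which no longer reaches 1.5-fold. The share of cells with an Il12b UMI after thinning was 31.4% (25.1 to 38.2) and 27.4% (23.1 to 32.1), with overlapping intervals (42.4% and 37.5% before thinning), against 0.528% and 1.21% of T cells.

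**Figure D4:**
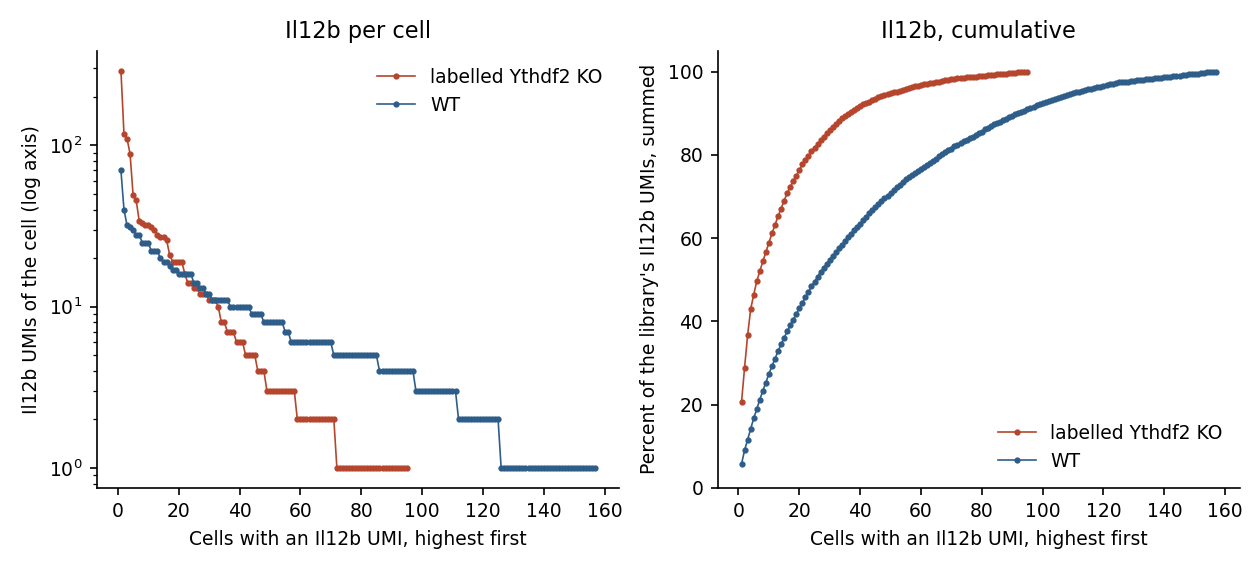
The left panel ranks the mature DCs with an Il12b UMI by their Il12b UMIs (log axis), and the right panel sums the percent of each library's Il12b UMIs over the same ranks, without Rhox5 cells. The curve labelled Ythdf2 KO starts at 291 UMIs against 70 in WT and reaches 46.4% against 16.7% at the fifth cell.

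Other subunits had few UMIs. Il12a, the p35 chain that completes interleukin-12, had 0 and 3 UMIs, and Il23a, the chain of interleukin-23, 0 and 2. Il12b was at 0 in both libraries' cDC2, at 0 and 216 CPM in cDC1 and at 6.58 and 13.7 CPM in macrophages. The 5 mature DC markers also differed between these 36 and 39 cDC1, with sums of 5.04 and 262 CPM. The part of maturing cells in the cDC1 values of Il12b was not tested. Il6 had 55.5 and 24.5 CPM, a ratio of 2.27 (1.6 to 3.22), and 1.73 without the 5 highest cells. Ebi3, the partner of the interleukin-27 chain, had 99.1 and 59.7 CPM, a ratio of 1.66 (1.31 to 2.11), and 1.22 without them. Il27 had 33.8 and 22.2 CPM, a ratio of 1.52 (1.01 to 2.29), and 1.45 without the highest cell. Il15ra, which presents interleukin-15, had 197 and 151 CPM, a ratio of 1.31. In the strict set 3 of 9 cytokines were higher, against 2.96% of all genes, and Il12b had 1268 and 518 CPM, a ratio of 2.45 (2.25 to 2.66).

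Hypoxia and glycolysis genes had the lowest median of these lists. Of 14 measured 5 were lower in cells labelled Ythdf2 KO and 0 higher, with a median log2 ratio of -0.44. Over all genes 3.28% were lower and 2.81% higher. In the strict set 7 of 12 were lower and 1 higher (Ndrg1, 1.55), with a median of -0.66. Over all genes of the strict set 4.37% were lower and 2.96% higher. Markers of some other cells were lower in that set too: 3 of 3 monocyte markers measured (median -0.83), 3 of 3 NK markers (-1.71) and 2 of 6 macrophage markers, with 1 higher (-0.52). Markers of other kinds went the other way or stayed level. The 1 B cell marker measured (1.90) and the 1 Langerhans cell marker measured (1.62) were higher, and 0 of 2 neutrophil markers were counted (0.02). Their part in the hypoxia values was not tested. Vegfa (chr17:46016993-46032369, minus strand), the vascular growth factor, had 33.8 and 58.9 CPM, a ratio of 0.574 (0.402 to 0.804). Bnip3, a mitophagy receptor, had 19.5 and 45.9 CPM, a ratio of 0.425, Aldoa, a glycolytic aldolase, 223 and 357 CPM, a ratio of 0.624, and P4ha1, a collagen prolyl hydroxylase, 21.0 and 37.9 CPM, a ratio of 0.555. Ero1l, an oxidase of the endoplasmic reticulum, had 24 and 36.7 CPM, a ratio of 0.654. Macrophages also held less Vegfa in the library labelled Ythdf2 KO, at 93.6 and 165 CPM, and 110 and 141 CPM of Bnip3. Whether the difference is particular to mature DCs was not tested.

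Interferon and class II genes lay slightly lower without passing 1.5-fold in most cases. Over all genes 2.81% were higher and 3.28% lower, and 2.96% and 4.37% in the strict set. Of 16 type I interferon genes 0 were higher or lower, with a median log2 ratio of -0.23, and in the strict set 3 were lower (Ifit2, 0.572, Ifit3, 0.496 and Zbp1, 0.616), with a median of -0.44. Isg15, a ubiquitin-like antiviral protein, had 1429 and 1890 CPM, a ratio of 0.756 (0.717 to 0.797), beside 1461 and 2339 CPM in macrophages and 1052 and 1542 CPM in T cells. Of 16 interferon gamma genes 0 were higher or lower, and in the strict set 5 were lower (Gbp7, Iigp1, Cxcl9, Cxcl10 and Ciita). Of 12 class II genes 1 was lower, H2-Oa, a regulator of peptide loading, at 12 and 26.4 CPM, a ratio of 0.455, with a list median of -0.20. Of the same 12, 3 were lower in the strict set (H2-Oa, 0.461, H2-DMa, 0.648, and Ciita, 0.358), with a median of -0.23.

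The remaining lists gave few or no genes, where 2.81% of all genes were higher and 3.28% lower (2.96% and 4.37% in the strict set). Of 16 migration genes 1 was higher, the cell cycle inhibitor Cdkn2b, at 36 and 23.7 CPM, a ratio of 1.52, and 1.29 in the strict set. None of 10 costimulation, 11 regulatory, 18 class I, 13 survival, 13 lineage or 9 m6A machinery genes was counted. The strict set had 1 class I gene lower, the transactivator Nlrc5 (0.613), and 1 lineage gene, the growth factor receptor Kit (0.536). The nearest among named ones were Tnfsf4, the ligand of OX40, at 160 and 111 CPM, a ratio of 1.44 (1.20 to 1.73), and Batf3, a ratio of 1.32. Cd274 had a ratio of 1.19 (1.10 to 1.30) and Cd200 of 0.816 (0.753 to 0.883), with intervals that left out 1. Of 10 pattern recognition genes Clec4a2 was higher, a ratio of 1.69 and 1.14 in the strict set, and the phagocytic receptor Axl (0.370, and 0.439 in the strict set) and the DNA sensor Cgas (0.541 and 0.399) were lower.

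Of 17 chemokines 2 were higher and 2 lower, and in the strict set 5 of 16 were higher and 5 lower. Over all genes the shares were 2.81% and 3.28%, and 2.96% and 4.37% in the strict set. The 5 higher in the strict set were Ccl3 (140 and 70.9 CPM), Ccl9 (54.4 and 27.2 CPM), Ccl12 (34.2 and 19.4 CPM), Cxcl1 (39.5 and 19.4 CPM) and Cxcl2 (335 and 208 CPM). The 5 lower were Ccl2 (76.9 and 136 CPM), Ccl7 (35.2 and 74.8 CPM), Ccl8 (18.1 and 53.9 CPM), Cxcl9 (47.0 and 99.6 CPM) and Cxcl10 (129 and 269 CPM). The next values are again of all cells without Rhox5 RNA. Ccl7 had 63.0 and 174 CPM, a ratio of 0.363, and Ccl8 had 23.3 and 49.7 CPM, a ratio of 0.468, while macrophages held 1883 and 1497 CPM of Ccl7 and 965 and 877 CPM of Ccl8. A single WT cell held 43.1% of its library's Ccl8 UMIs, and without the highest cells the ratio was 0.662 (0.403 to 1.05). Ccl6 had 162 and 90.6 CPM, a ratio of 1.79, and 1.38 in the strict set, beside 904 and 701 CPM in macrophages. Cxcl3, a neutrophil attractant, had 24 and 9.94 CPM in 7 and 12 cells. The part of macrophage and neutrophil RNA in these values was not tested.

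**Figure D5:**
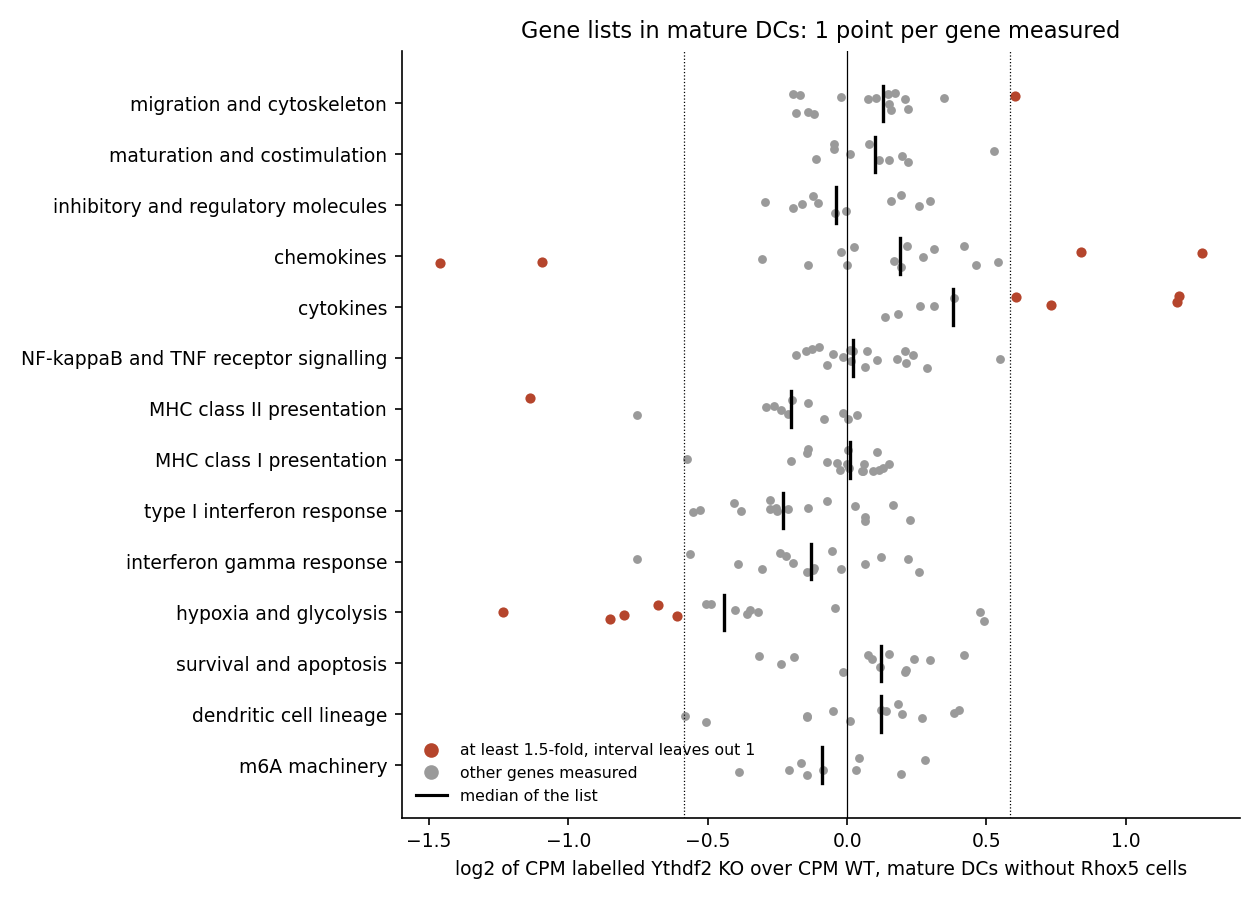
Each point is 1 gene of a list measured in mature DCs without Rhox5 cells, placed by the log2 ratio of its CPM labelled Ythdf2 KO over WT; dark red points are at least 1.5-fold apart with an interval that leaves out 1, dotted lines mark 1.5-fold and black bars the list medians. The cytokine median lies at 0.38 and the hypoxia median at -0.44, while the NF-kappaB median lies at 0.02.

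Among the mature DCs themselves, the genes that varied most beyond counting noise, by variance over mean, were S100a9 (76.4 and 124) and S100a8 (55.4 and 89.9), genes of neutrophils, followed by Ccl5 (47.2 and 45.2), Malat1 (60.8 and 39.2) and Cxcl2 (21.5 and 17.3). The class II gene H2-Ab1 (12 and 12.9), the cytotoxic gene Gzmf (10.8 and 16.3) and the fatty acid carrier Fabp5 (11.1 and 9.83) were also among the 15 highest. Neutrophil genes thus led the list, and the part of RNA from other cells in their spread was not tested.

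Genes that set cells with Il12b apart in the WT library were read again in the library labelled Ythdf2 KO. After thinning to 2000 UMIs, 65 cells labelled Ythdf2 KO held an Il12b UMI and 142 did not, against 110 and 291 in WT. The 10 genes with the highest ratio between WT cells with and without Il12b, 2.44 to 4.36, were chosen there and then read in the other library, where the ratio was over 1 for 10 of 10 and its interval lay over 1 for 8. Over the 2409 genes that could be chosen and had a UMI in cells without Il12b in that library, the ratio there was over 1 for 47.6% and its interval for 15.3%. Bcl2l14, a BCL2 relative, had 514 CPM in cells with Il12b and 126 CPM in cells without in the library labelled Ythdf2 KO, a ratio of 4.09, and 328 and 133 CPM in WT, a ratio of 2.47. The tetraspanin Cd81 had 350 and 77.4 CPM, a ratio of 4.52, and 344 and 108 CPM in WT, a ratio of 3.19. Cd70, the ligand of CD27 on T cells, had 167 and 72.9 CPM, a ratio of 2.29, and 175 and 49.8 CPM in WT, a ratio of 3.51. Fgfbp3 (3.98, and 4.36 in WT), Afap1 (2.33 and 3.87), the inhibitory receptor Btla (4.24 and 2.88), Nudt9 (2.46 and 2.56) and the DNase Dnase1l3 (3.18 and 2.44) made up the 8. The exceptions were Cx3cl1 (1.93) and Cat (1.46). The strict set gave a ratio over 1 for 10 of 10 in the library labelled Ythdf2 KO, 1.56 to 4.90, against 48.4% of 2366 genes. Median depths were 5869 UMIs in cells with Il12b and 5668 in cells without, and 6464 and 5458 in WT.

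Splits by Ccl17 and Ccr7 were read in the same way. Of 10 genes chosen by Ccl17, which was found in 7 and 8 thinned cells, 2 had a ratio over 1 in the library labelled Ythdf2 KO and 0 an interval over 1, against 40.7% and 5.16% of 2095 genes. Ccr7 enters the sum of the rule, so cells without it were taken by Fscn1 and Cacnb3, and its split is a description. Of 10 genes chosen by it, 4 had a ratio and an interval over 1, against 52.1% and 9.09% of 2420 genes. Among the 4 were S100a9, S100a8 and Retnlg, genes of neutrophils, with ratios of 7.39, 8.07 and 7.96, against 44.4, 18.4 and 41.7 in WT. With the strict set 5 had a ratio over 1 and 0 an interval over 1, against 53.9% and 6.87% of 2388 genes.

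Cells near the limits of the rule give a view of what it leaves out, here with Rhox5 cells left in. The 24 and 45 cells of the rule with 2 Fscn1 UMIs, 1 and 0 of them Rhox5 cells, had 2402 and 1790 CPM of Ccr7 and 1096 and 494 CPM of Ccl22. Just outside, the 25 and 43 cells with 1 Fscn1 UMI and a marker sum of at least 4 had 1740 and 1821 CPM of Ccr7 and 471 and 353 CPM of Ccl22. The 108 and 152 cells with no Fscn1 UMI and such a sum had 1952 and 1897 CPM of Ccr7 and 520 and 335 CPM of Ccl22. Of the 9 and 6 cells of the rule with a sum of 4, which had 0 CPM of Ccl22, 7 and 1 were Rhox5 cells. In all, 478 and 837 cells passed the limits on Fscn1 and the sum, and 221 and 416 of them were set aside for T cell (119 and 202), NK (103 and 197) or C1q (170 and 296) UMIs, where a cell can be counted under more than 1.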

How the data were processed

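Raw UMI counts per gene and barcode were deposited for 2 libraries, per the file headers from Cell Ranger 6.1.1, while build mm10, Seurat 4.0.4 and Cell Ranger 5.0.1 were used, per the submitters' processing notes; the conflict was not resolved. The counts carry no normalization. No doublet was removed beyond the rule, and 1 alternative leaves out the 8% highest scores per library. Here UMIs of the cells of a group were summed per library and given as CPM, with exact Poisson intervals for levels, Clopper-Pearson intervals for shares and conditional exact intervals for ratios (scipy 1.17.1 and numpy 2.4.6 under Python 3.11.15, with scikit-learn 1.9.0, pandas 2.3.3 and matplotlib 3.10.9). Macrophages needed at least 10 C1q UMIs, T and NK cells at least 3 of their genes, and cDC1 and cDC2 at least 2 of theirs. Genes named are the 12 highest and 12 lowest ratios among those counted whose level in mature DCs was at least that of all other cells kept in both libraries, leaving out genes of the rule and mitochondrial, ribosomal protein, sex-linked, receptor segment and predicted genes, and the 20 leading genes of mature DCs with at least 50 CPM, the 15 of highest variance over mean at 2000 UMIs, and the 10 of highest WT ratio in each split. The members, lists and rules were chosen with earlier results of these data known. March1 and Tmem173 stand for newer symbols; Cd58, Mx1, Mx2 and Clec7a were not matched. Gene coordinates are from GENCODE M21 (GRCm38).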

Additional observations from a re-analysis of the deposited data

How the results depend on the processing

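The mature DC share of all cells kept was lower in the library labelled Ythdf2 KO under every alternative run, with ratios of 0.678 to 0.795 and 0.642 without Rhox5 and Lyz2 or S100a8 cells, and the share of conventional DCs gave 0.975 to 1.05. The sets without Rhox5 cells, without Lyz2 or S100a8 cells and with a Ccr7 UMI were chosen after seeing the data. Counts moved most: 1966 higher genes became 996 with cells weighted equally, 3304 at 20 UMIs with no CPM minimum, 1294 at 2-fold, 296 in cells with a Ccr7 UMI, 143 without Rhox5 cells and 145 in the strict set. The 1262 lower genes became 248, 396 at 2-fold, 180, 794 with no C1q UMI allowed, 167 and 214. Without Rhox5 cells, 219 higher and 255 lower were counted at 20 UMIs and 32 and 44 at 2-fold. The Ythdf2 ratio was 0.941 over all cells of the rule, 1.21 without Rhox5 cells and 1.32 (1.02 to 1.71) in the strict set. List medians changed sign against those over all cells of the rule. The cytokine median, -0.44, stood at 0.16 with cells weighted equally, 0.32 in cells with a Ccr7 UMI, 0.38 without Rhox5 cells and 0.50 in the strict set. With cells weighted equally chemokines stood at 0.11 and survival at 0.01. In cells with a Ccr7 UMI migration stood at 0.06, chemokines 0.19, NF-kappaB 0.00, hypoxia -0.39, survival 0.04 and lineage 0.05. Without Rhox5 cells migration stood at 0.13, costimulation 0.10, chemokines 0.19, NF-kappaB 0.02, class I 0.01, hypoxia -0.44, survival 0.12, lineage 0.12 and cell cycle -0.06. In the strict set they were 0.17, 0.09, 0.04, 0.09, 0.02, -0.66, 0.09, 0.15 and -0.31. Dynap and Prg4 had a ratio of 0 in the last 3 sets, and Serpinh1 0 in the strict set. By construction these sets hold fewer cells, and the cause was not tested further. No paired analysis was possible because each genotype has 1 library. Depth limits genes under 50 UMIs, which were not counted.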
